A study of Mus musculus with 68 samples.

Results

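Papillomas from mice sacrificed late after the start date in their labels were compared with papillomas from mice sacrificed early. The tumors came from FVBBX mice. These are the offspring of F1 hybrids, between the wild-derived strain SPRET/Ei and the inbred strain FVB/N, that were crossed back to FVB/N, and each animal carries its own mixture of heterozygous and FVB/N-homozygous segments. Every mouse in both groups had been initiated on the dorsal skin with the carcinogen dimethyl benzanthracene (DMBA) at 8 to 12 weeks of age and promoted with the phorbol ester TPA for 20 weeks, so tumors of both groups carry both treatments. Each papilloma was measured on its own Affymetrix mouse expression array, and the labels gave the days from start to sacrifice for 31 of the 37 mice. The long group holds the 14 mice with 290 days or more (24 arrays; 7 females and 7 males). The short group holds the 8 mice with 230 days or fewer (15 arrays; 6 females and 2 males). A further 9 mice (17 arrays) lay between these limits and are given for orientation only, and 6 mice (12 arrays) without a time entered no comparison. Log2 values of the papillomas of 1 mouse were averaged, so that n counts mice.

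A papilloma is a benign outgrowth of the epidermis folded over a core of connective tissue, blood vessels and immune cells. Initiation leaves mutated keratinocytes in the skin, and promotion makes their clones expand into visible tumors. Some papillomas regress when promotion ends, others persist, and a minority progress to squamous cell carcinoma. The sources used here give neither the reason for which each mouse was sacrificed, nor the event that the start date marks, nor the age of each tumor. Time to sacrifice is therefore a property of the mouse, and the age of the animal and the interval since promotion move with it and cannot be told apart from it.

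The 2 groups did not overlap in time by construction. Long mice were sacrificed at 291 to 388 days (median 305) and short mice at 179 to 228 days (median 204). Near the limits, mouse 11 at 228 days was just inside the short group and mouse 13 at 240 days just outside it, while mouse 7 at 279 days was just outside the long group and mice 6 and 8 at 291 days just inside it. The number of papillomas at 20 weeks ranged from 0 to 35 in long mice (mean 7.71 ± 8.61, SD, n = 14) and from 3 to 17 in short mice (9.13 ± 4.94, n = 8), a difference within the spread between mice (exact permutation test over mice, two-sided p = 0.694). The highest number, 35, belonged to the mouse with the longest time, mouse 36 at 388 days, and the lowest, 0, to the next longest, mouse 35 at 343 days. Papillomas at 24 weeks (exact permutation p = 0.936) and weeks to the first papilloma (exact permutation p = 1, in the 12 long and 8 short mice with a value) showed no difference beyond the spread either. A carcinoma from the same mouse had also been arrayed for 13 of 14 long and 6 of 8 short mice (Fisher's exact test, two-sided p = 0.527).

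Other labels were spread over the groups as follows. Females made up 7 of 14 long and 6 of 8 short mice (Fisher's exact test, two-sided p = 0.380). The coat was labelled agouti in 6 of 14 long and 2 of 8 short mice and white in the others (Fisher's exact test, two-sided p = 0.649). The mice fell into 7 start cohorts, meaning animals with the same start date, of which only 3 held both groups. Cohort 1 held 2 long and 4 short mice, cohort 3 held 1 of each, and cohort 6 held 5 long and 1 short. In cohort 1 both long mice were labelled male and all 4 short mice female. In cohort 3 the long mouse was labelled male and the short mouse female. Sex and time therefore cannot be told apart within cohorts 1 and 3. In cohort 6 the short mouse was labelled male and the 5 long mice were of both sexes. The labels also give 4 origin codes, each with mice of both groups, and a cage. Of the 22 mice 11 shared a cage with another of them, in 5 cages, 1 of which held both groups, and the part of cage and origin in the results was not tested. The 3′ probeset of Actb over its 5′ probeset, a log2 ratio that grows as RNA degrades, was above 1 in long mouse 2 (1.43) and short mice 30 (1.29) and 31 (1.28). The group means of that ratio were 0.741 ± 0.220 and 0.830 ± 0.303 (exact permutation p = 0.450). In 4 arrays of 3 long mice (21, 24 and 35) the sex-linked transcripts Xist or Eif2s3y went against the sex label, and in no array of a short mouse.

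The samples carried the keratinocyte markers of the labelled tissue. The basal keratin Krt5 lay between 12.8 and 14.3 on the log2 scale in all 37 mice and its partner Krt14 between 14.0 and 14.8. Markers of other cells were present at varying levels. The collagen gene Col1a1 of fibroblasts lay between 11.5 and 13.6 in long and 12.4 and 13.6 in short mice, and the macrophage receptor gene Csf1r between 10.1 and 12.2 and between 10.5 and 11.9. Acta1, the actin of skeletal muscle, ranged from 5.53 to 12.6 in long and from 6.00 to 12.4 in short mice, and both groups held mice with high values. Long mouse 35, with 1 array, had 0 papillomas in its labels at both 20 and 24 weeks. Its mean of the striated muscle list (9.38) was the highest of both groups. Its mean of the cornified envelope list (10.0) was the lowest of the long mice. Whether this array differs in kind of tissue from the others was not tested.

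Very few single genes separated long from short mice. Without a covariate 0 of 21581 probesets (0% in either direction) passed an adjusted p of 0.05 in limma, and the smallest adjusted p was 0.103. With the number of papillomas at 20 weeks as covariate 1 probeset passed (0.00463%), for the potassium channel gene Kcnj15, which was lower in long mice. At an unadjusted p under 0.05, 769 probesets (3.56%) were higher in long mice and 872 (4.04%) lower without the covariate, 7.6% in all. With it 814 (3.77%) were higher and 974 (4.51%) lower, 8.29% in all. The median difference of all probesets was -0.01 on the log2 scale in both fits. Differences over 1 on the log2 scale, a factor of 2, were seen for 59 probesets without the covariate, 35 higher and 24 lower in long mice. Adding the papilloma number moved the difference of a probeset by 0.01 at the median and by 0.26 at most.

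Kcnj15 encodes an inward-rectifying potassium channel (Kir4.2) of epithelial cells. Its level on the log2 scale was 5.92, 6.30 and 7.06 (lowest, median and highest) in the 14 long mice and 6.70, 6.99 and 7.45 in the 8 short mice. All long mice but mouse 36 lay below every short mouse, and 3 short mice lay above every long mouse, in a fit in which 0% of all probesets passed without the covariate and 0.00463% with it. The difference, long minus short, was -0.71 (SE 0.12; 1.64-fold) without the covariate (limma, adjusted p = 0.103) and -0.68 (SE 0.10) with papilloma number (limma, adjusted p = 0.0225). By exact permutation of the group over the 22 mice the unadjusted two-sided p was 3.44e-05, for a gene chosen by its small p. The 9 mice between the limits had 6.02, 6.46 and 6.99, overlapping both groups. Among them the mouse at 240 days, nearest to the short group, had 6.34, and the mice at 278 and 279 days, nearest to the long group, had 6.41 to 6.99, so their order did not follow that of the long and short groups. Within the 3 cohorts that held both groups the difference was -0.84, -0.30 and -1.04. It was -0.83 with sex and start cohort in the fit and -0.70 without the 3 mice of high Actb ratio, with adjusted p of 0.340 and 1 in the fits without papilloma number. The other tested probeset of Kcnj15 differed by -0.14 with an unadjusted p of 0.677, so the result rests on 1 probeset. Leaving out mouse 36, the long mouse of highest Kcnj15 and of most papillomas, gave -0.77 and an adjusted p of 0.00146 without the covariate. With papilloma number, the call held in 14 of the 22 fits that left out 1 mouse (limma, adjusted p from 0.00503 to 0.111) and was lost without long mouse 4, 6 or 19 or short mouse 20, 26, 28, 29 or 30. It was also lost with sex added (adjusted p = 0.0593), with sex and start cohort (0.265) and without the mice of high Actb ratio (0.120). With the Actb ratio as a further covariate the difference was -0.70 and the call held (limma, adjusted p = 0.0275). With that ratio but without papilloma number the adjusted p in limma was 0.209.

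**Figure D1:**
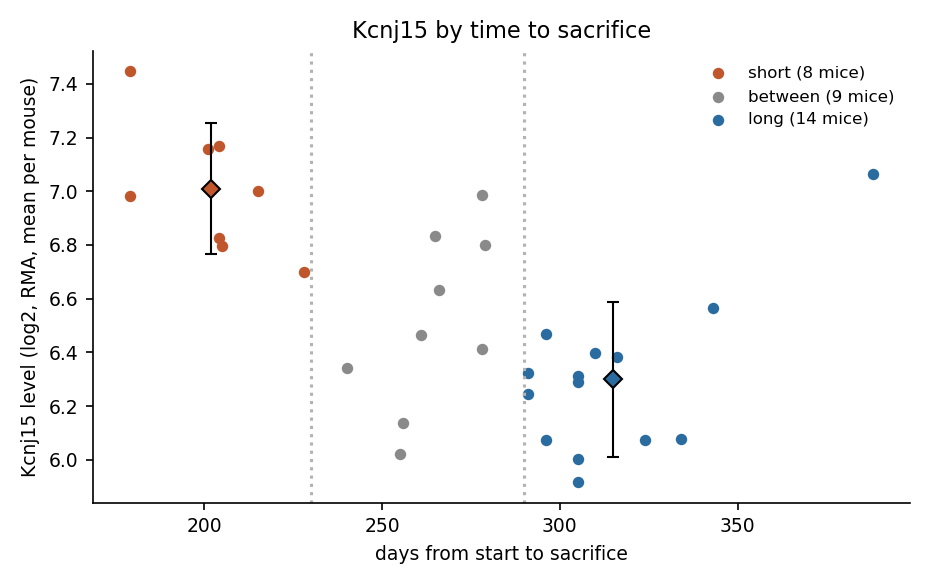
Kcnj15 level per mouse (y axis, log2 RMA value averaged over the papillomas of a mouse) against days from start to sacrifice (x axis) for the 31 mice with a time; dotted lines mark the limits of 230 and 290 days, and diamonds with bars give the mean ± SD of the short and long groups. Short mice lie between 6.70 and 7.45 and long mice between 5.92 and 7.06, with the mouse at 388 days highest among the long, while mice between the limits spread over 6.02 to 6.99.

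Among the other probesets of smallest p none passed the threshold, and their values are given as descriptions. Cers6, a ceramide synthase, had 6.36, 6.62 and 6.95 (lowest, median, highest) in long mice against 6.82, 7.02 and 7.27 in short mice. Of the long mice 12 lay below every short mouse, and the difference was -0.41 (SE 0.08; limma, adjusted p = 0.245). Slc26a4, the anion exchanger pendrin, had 4.69, 5.24 and 6.35 against 5.47, 6.60 and 7.75. Its difference of -1.14 (SE 0.24; limma, adjusted p = 0.556) came with 5 short mice above every long mouse, but its level in most long mice was near the array median of 5.23, where signal over background is small. Dpp4, a peptidase of the cell surface, had 6.83, 7.29 and 7.82 against 7.38, 8.00 and 8.54, with a difference of -0.70 (SE 0.16), and its second tested probeset differed by -0.12. Erap1, which trims peptides for MHC class I, differed by -0.44 (SE 0.10).

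The paralogs Sectm1a and Sectm1b on chromosome 11 encode secreted and membrane proteins that act on T cells. Sectm1a had 6.19, 6.64 and 7.87 in long mice against 7.09, 7.84 and 8.77 in short mice, a difference of -1.09 (SE 0.24), with 11 long mice below every short mouse. Sectm1b differed by -0.63 (SE 0.15), but its probeset was above the array median on only 31 of 68 arrays. In most long mice its level was near the array median of 5.23, where signal over background is small. The genes are paralogs, and the values of both are uncertain to the extent that their probes cross-hybridize, which was not tested. Tsc22d3, the glucocorticoid-induced leucine zipper gene, had 6.56, 7.72 and 8.51 against 7.33, 8.83 and 10.1. Its difference was -1.09 (SE 0.28), and both other tested probesets were also lower in long mice at an unadjusted p under 0.05, by 0.97 and by 0.26 on the log2 scale. Lcn2, the siderophore-binding protein lipocalin 2 of neutrophils and inflamed epithelium, had 8.06, 8.68 and 10.1 against 8.86, 9.97 and 10.3 and a difference of -0.95 (SE 0.25). Long and short mice overlapped in Tsc22d3 and Lcn2, with 3 and 9 long mice below every short mouse. The remaining genes with lower values in long mice were Vps35 of the retromer, Filip1l, Smim3 and the small GTPase gene Rap2c, with differences between -0.28 and -0.45. The other tested probeset of Vps35 differed by -0.14, and both others of Rap2c by -0.23 and -0.36.

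A further 12 genes of smallest p had higher values in long mice. Alox12b, the lipoxygenase that acts on barrier lipids of the epidermis, had 9.85, 11.1 and 11.8 in long mice against 8.76, 9.81 and 10.9 in short mice. The difference was 1.13 (SE 0.29; 2.19-fold), and 10 long mice lay above every short mouse. Lpin3, a phosphatidate phosphatase, differed by 0.63 (SE 0.15), with 7.44, 8.18 and 8.50 against 6.88, 7.51 and 8.08. Tubb3, a beta-tubulin best known from neurons, had 6.66, 7.86 and 8.53 against 5.68, 6.90 and 7.36 and differed by 1.01 (SE 0.26). Sox2, a transcription factor of stem and progenitor cells, had 5.07, 7.76 and 8.50 against 2.85, 6.08 and 7.15. Its difference of 1.75 (SE 0.48; 3.37-fold) was the largest among the 24 genes named for the fit without covariate, and 11 long mice lay above every short mouse. The nuclear RNA Malat1 differed by 0.65 (SE 0.16), and its 6 other tested probesets were also higher in long mice, by 0.15 to 0.57, 1 of them at an unadjusted p under 0.05. Zfp239, a zinc finger gene, had 5.58, 5.85 and 6.26 against 5.04, 5.47 and 5.75 and differed by 0.43 (SE 0.10). For Tmem25, Inafm1, the ubiquitin ligase gene Wwp2, Dennd1b, the splicing factor gene Prpf6 and Spsb4 the differences lay between 0.29 and 0.74. Several of these rest on 1 probeset. Other tested probesets differed by 0.07 for Inafm1, by 0.11 and 0.05 for Wwp2, by 0.14, 0.07 and 0.10 for Dennd1b and by 0.17 for Prpf6, all at an unadjusted p above 0.05. The probesets named for Dennd1b and Spsb4 were above the array median on 11 of 68 arrays, the fewest that the filter admits, and all 8 short mice lay below the median array level of 5.23, so both values are close to background. Tmem25 also lay below 5.23 in every short mouse except mouse 26 (5.52). Adjusted p was 0.654 for all 12 higher genes.

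**Figure D2:**
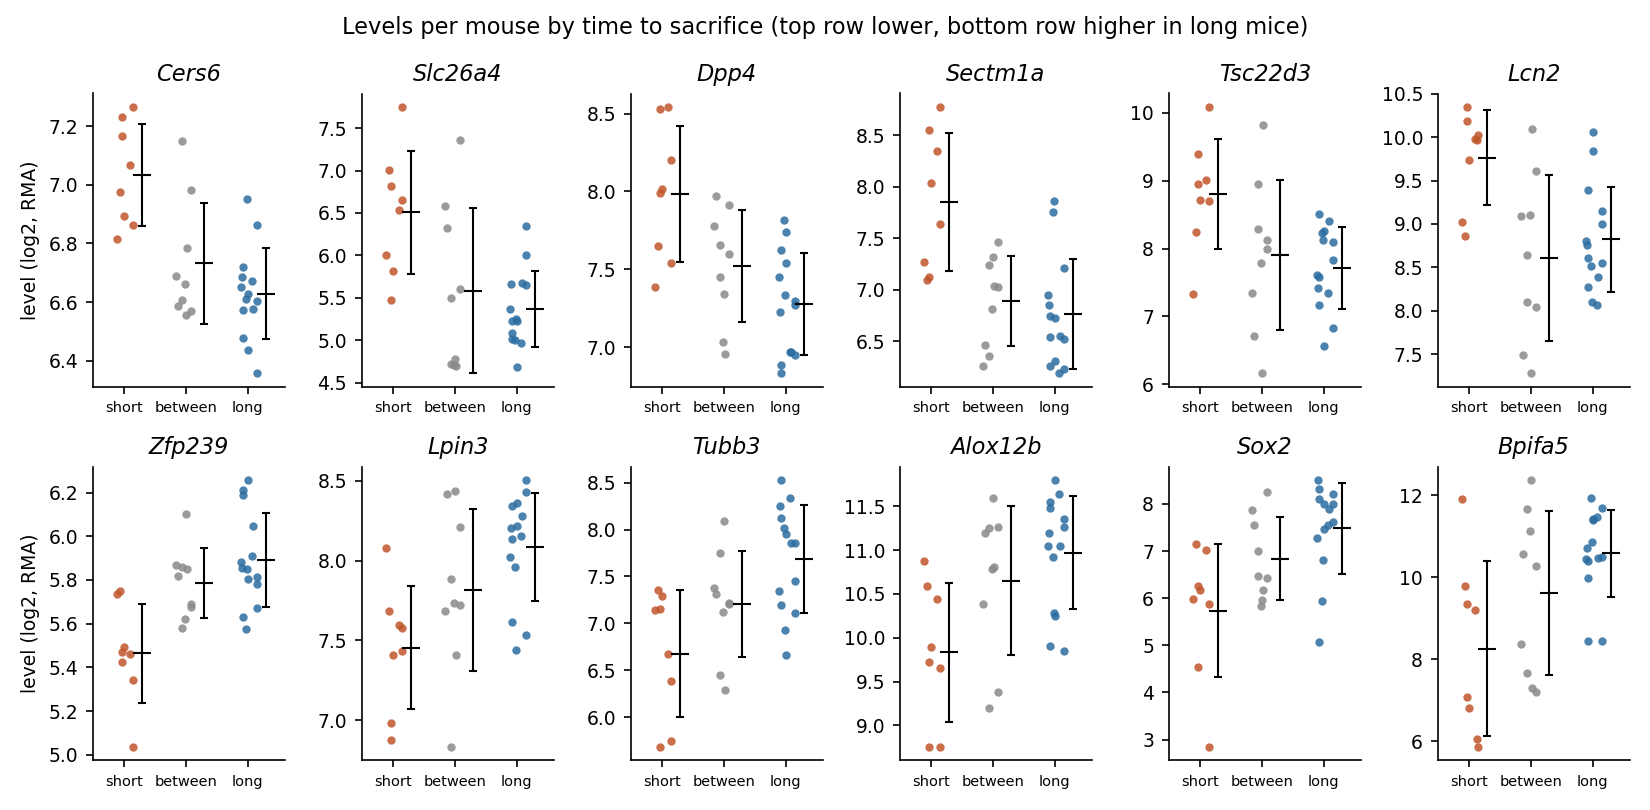
Level per mouse (y axis, log2 RMA value) of 12 genes in the 8 short, 9 between and 14 long mice (x axis), with points for mice and bars for mean ± SD. The 6 genes of the top row have lower and the 6 of the bottom row higher means in long than in short mice, the groups overlap in most panels, and none of the 12 passed an adjusted p of 0.05.

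The fit with papilloma number brought forward 12 further genes that the first fit had not ranked as high, none past the threshold. Bpifa5, a secreted protein of the BPI fold family, had 8.44, 10.6 and 11.9 in long against 5.86, 8.13 and 11.9 in short mice and differed by 2.38 (SE 0.64) with the covariate and 2.33 without it, the widest difference of all 36 genes of both fits. Only 1 long mouse lay above every short mouse, and its probeset can match more than 1 transcript. Hpse (heparanase) differed by 0.54 (SE 0.13), Gm2a, the GM2 ganglioside activator of the lysosome, by 0.77 (SE 0.20), Kyat1, an enzyme of kynurenine metabolism, by 0.73 (SE 0.19), and Trub2 and Rabggta by 0.28 and 0.29. Lower in long mice were Lcn2, Sp3, 9230114K14Rik, Smc6, Eif2s2 and Mrpl42, with differences between -0.26 and -0.90. The probesets of some of these genes were unequal. With the covariate the other 4 of Smc6 differed by 0.08, -0.08, -0.25 and -0.03, the other 2 of Gm2a by 0.34 and 0.37, and the other 2 of Trub2 by 0.13 and 0.21. Adjusted p in limma was between 0.485 and 0.576 for these 12. Among the 36 genes the covariate moved a difference by 0.05 at most.

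Gene lists of the tissue were described by the number of their tested genes and by the median difference, 1 probeset per gene. In every list 0 genes passed the adjusted threshold in either fit (0% and 0.00463% of all probesets). The largest shifts upward in long mice were seen in barrier and detoxification genes. Of 29 genes of the cornified envelope, the crosslinked protein shell of the outer epidermis, 28 had a higher mean in long mice, with a median of 0.38 against -0.01 for all probesets. At an unadjusted p under 0.05, 7 of the 29 were higher and 0 lower, where 3.56% of all probesets were higher. The transglutaminase gene Tgm3, whose product links envelope proteins, had 9.34, 11.2 and 12.4 in long against 8.42, 9.63 and 11.3 in short mice and differed by 1.30 (SE 0.42). The envelope proteins loricrin (Lor) and corneodesmosin (Cdsn) differed by 0.59 each, and the late cornified envelope genes Lce3b, Lce3c and Lce3f by 0.62, 0.54 and 0.40. The median was 0.64 with sex and start cohort and 0.39 without the mice of high Actb ratio.

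Not all differentiation genes had higher means in long mice. Of the 10 tested genes of the list of Sprr genes and involucrin 8 were higher, with a median of 0.20 (0.11 without short mouse 29), and Sprr2k differed by 0.76 (SE 0.31). Members of the Sprr and Lce3 families are near-identical, and their probesets can share signal. Ivl itself, a precursor of the envelope made early in differentiation, had 9.62, 10.8 and 11.9 against 11.0, 11.3 and 12.1 and differed by -0.50 (SE 0.25). Sprr3 differed by 0.98 (SE 0.46), but short mouse 27 stood at 8.40, far below the other short mice, and without it the difference was 0.39. The mucosal keratins Krt4 and Krt13, which are not made by normal interfollicular epidermis and appear in skin papillomas, differed by 1.80 (SE 0.68) and 1.40 (SE 0.55). Krt13 was also low in mouse 27 (6.88) and differed by 0.67 without it. With sex and start cohort in the fit Krt4 differed by 0.34 and Krt13 by 0.27. In the list of simple and mucosal keratins the median was -0.32, as 4 of its 6 genes had lower means in long mice, with Krt7 at -0.88 (SE 0.85). That median was -0.17 without short mouse 11, -0.19 without long mouse 21 and -0.55 without long mouse 35.

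Detoxification and oxidative stress genes had a median of 0.39, with 13 of 18 higher in long mice and 7 of 18 higher at an unadjusted p under 0.05, where 3.56% of all probesets were. Hmox1 (heme oxygenase 1) had 8.45, 9.54 and 10.8 in long against 8.37, 8.51 and 9.60 in short mice and differed by 0.91 (SE 0.27). Aldh3a1, an aldehyde dehydrogenase, differed by 1.30 (SE 0.55), the quinone reductase gene Nqo1 by 0.64 (SE 0.26), and Srxn1, the cystine transporter gene Slc7a11, Gsta4 and Cbr3 by 0.39 to 0.44. Start cohort and sex moved the median of this list from 0.39 to 0.07, while it was 0.39 without the mice of high Actb ratio and 0.26 without short mouse 27.

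Hair shaft and root sheath keratins had higher means in long mice for 17 of 18 genes, with a median of 0.35 and 0 of 18 at an unadjusted p under 0.05. That median was 0.20 without long mouse 5, 0.59 without short mouse 26 and 0.69 without short mouse 28, and 0.17 with sex and start cohort. Their spread was wide: Krt86 ranged from 3.50 to 9.54 in long and from 3.65 to 8.67 in short mice. The hair follicle regulators Foxn1 and Dlx3, transcription factors that also act in the epidermis, differed by 0.62 (SE 0.20) and 0.56 (SE 0.25). Their list had a median of 0.06 with 12 of 16 genes higher, and its gene Gata3 differed by -0.40 (-0.24 without short mouse 27). Among 18 AP-1 and immediate early genes, which respond to growth signals, 4 were higher at an unadjusted p under 0.05, where 3.56% of all probesets were, and the median was 0.11 (0.18 without short mouse 28). The AP-1 subunit gene Fosl1 differed by 0.44 (SE 0.21; 0.29 without short mouse 20), Egr1 by 0.35 (SE 0.14), and Klf4, a regulator of epidermal differentiation, by 0.30 (SE 0.11). Dusp5 and Spred1, both inhibitors of ERK signaling, had opposite signs, 0.46 (SE 0.17) and -0.34 (SE 0.13).

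Proliferation and basal layer genes had medians near that of all probesets. Of 24 mitosis genes 15 were higher and 9 lower in long mice, with a median of 0.03 and 0 at an unadjusted p under 0.05. Mean levels of the mitosis list ran from 7.41 to 8.94 in long and from 7.94 to 8.66 in short mice. DNA replication genes had a median of 0.05, basal epidermis genes -0.01, p53 targets and cell cycle inhibitors 0.05, and Notch genes 0.02. Ccng1, a p53 target, differed by -0.32 (SE 0.13). Of 8 genes linked with papilloma susceptibility or growth none passed an unadjusted p of 0.05, and the standard errors of several were as large as their differences. Ccnd1 (cyclin D1) differed by 0.04 (SE 0.14), Il18 by -0.15 (SE 0.21), Spry2 by 0.14 (SE 0.12), Map2k4 by -0.04 (SE 0.09), Tslp by -0.49 (SE 0.69), Lgr5 by -0.16 (SE 0.25), Gprc5d by 0.39 (SE 0.38) and the granzyme gene Gzme by 0.37 (SE 0.60). Tslp differed by 0.06 without short mouse 27, and Gzme by 0.07 without long mouse 35. The Gzme probeset was above the array median on only 27 of 68 arrays. Its mean over these 68 was 5.02, below the median array level of 5.23, and it can match more than 1 transcript.

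Fibroblast and matrix genes had lower means in long mice. All 21 tested fibroblast and extracellular matrix genes were lower, with a median of -0.38, and 6 of 21 were lower at an unadjusted p under 0.05, where 4.04% of all probesets were. In whole tumors fewer cells of a type and less RNA per cell cannot be told apart. The collagen gene Col1a1 differed by -0.55, Col12a1 by -0.40 and Postn, a matrix protein of remodeling stroma, by -0.45. The proteoglycan gene Dcn had 9.55, 10.7 and 12.2 in long against 10.8, 11.3 and 12.3 in short mice and differed by -0.69 (SE 0.31). The receptor gene Pdgfra, a fibroblast marker, differed by -0.56 (SE 0.25). The mean of the list ran from 9.16 to 11.2 in long and from 9.97 to 11.1 in short mice, and mice between the limits had 9.05 to 10.7. Of 12 endothelial genes 10 were lower, with a median of -0.25 and Cdh5 (VE-cadherin) at -0.44 (SE 0.18). The endothelial median was -0.08 without the mice of high Actb ratio and -0.15 without short mouse 31 alone. Of 18 TGF-beta and mesenchymal genes 17 were lower, with a median of -0.15 and the ligand gene Tgfb2 at -0.38 (SE 0.15), and without the mice of high Actb ratio that median was -0.07. Pericyte and smooth muscle genes had a median of -0.04, with 3 of 8 higher. In a separate list of 17 invasion genes 6 were higher and 11 lower, with a median of -0.11 that ranged from -0.19 to -0.01 with each mouse left out. Its gene Pdpn (podoplanin), a membrane protein of lymphatic vessels and of invading keratinocytes, differed by -0.69 (SE 0.23), and the protease activator gene Plau by 0.96 (SE 0.76). The fibroblast median was -0.51 with sex and start cohort and -0.24 without the mice of high Actb ratio. Over all 31 mice split at 270 days the medians of the fibroblast, TGF-beta and endothelial lists were -0.03, -0.01 and -0.004. Striated muscle genes had a median of -0.33 with 15 of 16 lower and 0 at an unadjusted p under 0.05 (-0.05 without short mouse 31), and their part in these values was not tested.

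**Figure D3:**
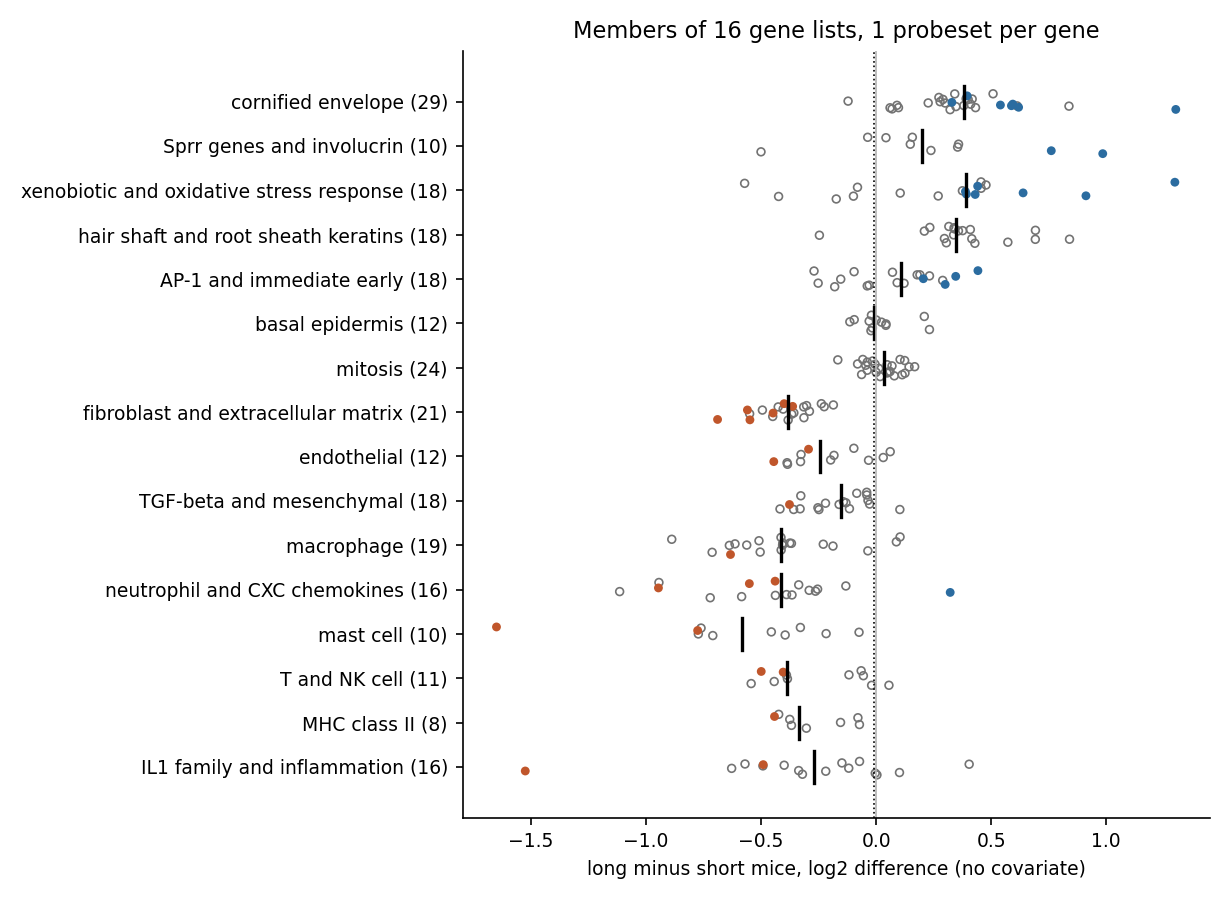
Difference, long minus short mice without covariate (x axis, log2), of each tested gene of 16 gene lists (y axis, number of genes in brackets), with filled points for an unadjusted p under 0.05, black bars for list medians and a dotted line for the median of all probesets. Nearly all points of the cornified envelope lie to the right and all of the fibroblast list to the left of 0, and mitosis and basal genes lie around 0.

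In most immune cell lists the median difference was also below 0 in this fit, but not in those of B cells or granzymes. Of 10 mast cell genes all 10 were lower, with the median at -0.58. Mcpt8, a protease of basophils, had 4.51, 7.10 and 10.2 in long against 6.38, 7.94 and 11.5 in short mice and differed by -1.65 (SE 0.76), and Hdc, the histamine-forming enzyme, by -0.78 (SE 0.33). Of 19 macrophage genes 17 were lower (median -0.41), with the scavenger receptor gene Cd163 at -0.89 (SE 0.62). Of 16 neutrophil and CXC chemokine genes 15 were lower (median -0.41), and the exception Cxcl1, a neutrophil attractant, differed by 0.32. Of 11 T and NK cell genes 10 were lower (median -0.39), with Ctla4 at -0.50 (SE 0.20), and all 8 MHC class II genes were lower (median -0.34), with Cd74 at -0.45 (SE 0.21). In the IL1 and inflammation list (16 genes, median -0.27) the cytokine gene Il6 had 4.28, 6.07 and 8.69 against 5.72, 7.24 and 10.4 and differed by -1.52 (SE 0.58). The acute phase gene Saa3 differed by -1.44 (SE 0.50), in a list with 10 of 11 genes lower and a median of -0.17. The interferon-induced genes Gbp2 and Cxcl9 differed by -0.87 (SE 0.34) and -0.86 (SE 0.35), in a list with 12 of 16 lower and a median of -0.14. The interferon median was -0.02 with sex and start cohort and 0.04 without the mice of high Actb ratio. B and plasma cell genes went the other way from most immune lists, with 7 of 9 higher and a median of 0.12. Left-out mice moved that median between -0.01 (long mouse 36) and 0.49 (short mouse 31), and it was 0.51 without the mice of high Actb ratio. Ighm, the immunoglobulin mu chain, differed by 1.46 (SE 0.92). Igha, the immunoglobulin alpha chain, differed by -0.30, and by 0.13 without short mouse 31. The B cell marker Cd79a was above the array median on only 3 of 68 arrays. The 3 tested granzyme and perforin genes had a median of 0.14, with 2 of them higher, but Gzmb differed by -0.62 (-0.30 without short mouse 31). The mean level of these genes was 5.10 in long and 5.14 in short mice.

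These immune values depended on which mice and covariates entered. Without short mouse 31 alone the median was -0.31 for mast cell, -0.10 for T and NK cell, -0.20 for MHC class II and -0.16 for IL1 family genes, and Ctla4 differed by -0.30. Without short mouse 27 it was -0.16 for T and NK cell and -0.17 for IL1 family genes. With sex and start cohort in the fit, the medians were 0.13 for mast cell, 0.01 for macrophage and 0.09 for T and NK cell genes. They were 0.05 for MHC class II and 0.08 for IL1 family genes, and that of neutrophil genes was -0.36. In that fit only 3 cohorts, with 8 long and 6 short mice, held both groups. Long and short mice of the same labelled sex met only in cohort 6, which had 1 short mouse (mouse 20). Cohorts of a single group still entered the estimate of the sex difference. Without the mice of high Actb ratio the mast cell median was -0.01 and that of T and NK cells -0.03. In that fit Il6 differed by -0.96 and Mcpt8 by -0.81, while with sex and start cohort they differed by 0.31 and 0.68. With papilloma number as covariate the medians stayed lower in long mice, at -0.55 for mast cell, -0.36 for macrophage and -0.33 for T and NK cell genes. Over all 31 mice split at 270 days the medians were -0.21 for mast cell, -0.06 for macrophage and -0.02 for neutrophil genes. On that split they were -0.04 for T and NK cell, -0.09 for MHC class II and -0.06 for IL1 family genes.

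**Figure D4:**
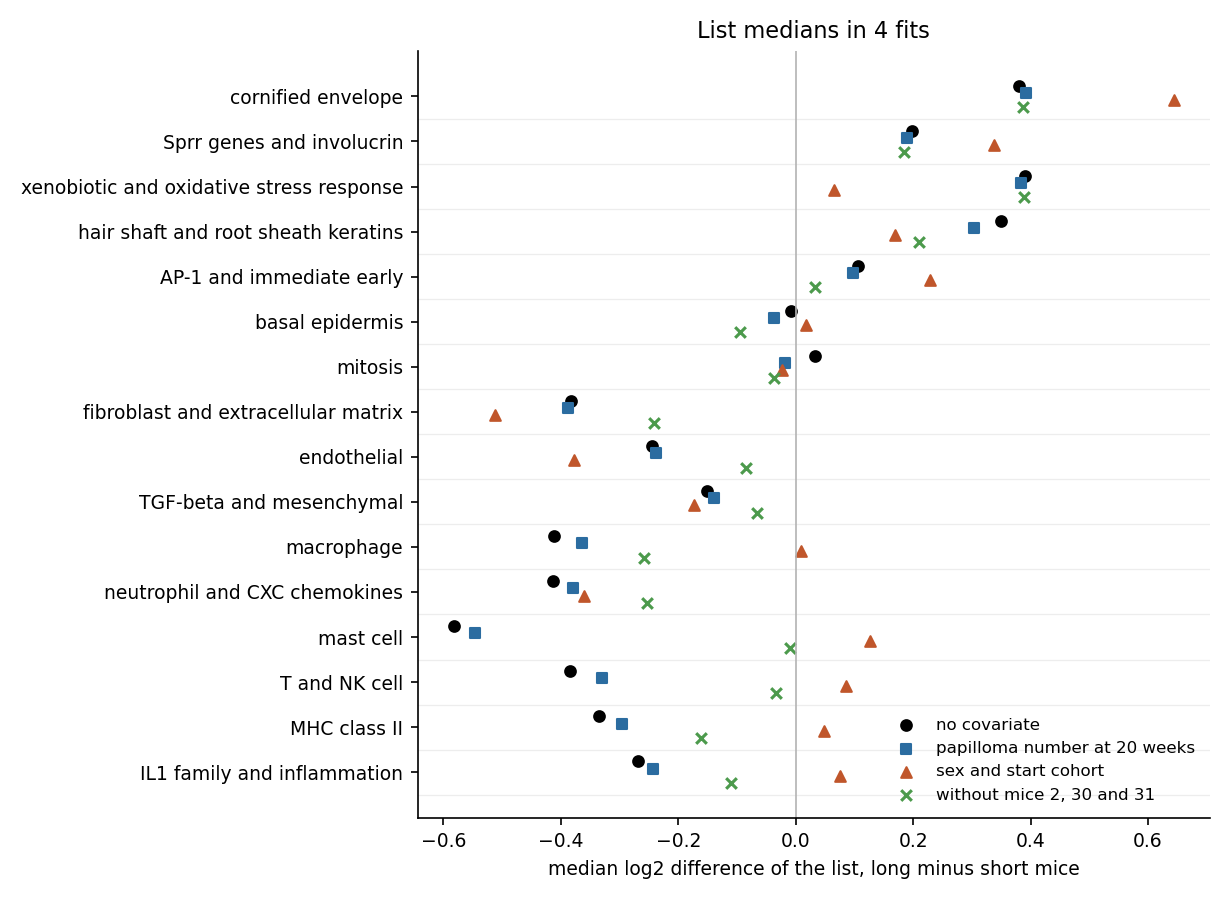
Median difference of 16 gene lists, long minus short mice (x axis, log2), in the fits without covariate, with papilloma number at 20 weeks, with sex and start cohort, and without the 3 mice of Actb 3′ to 5′ ratio above 1. Circles and squares lie close together in every list, the cornified envelope stays to the right and the fibroblast list to the left of 0 in all 4 fits, and the mast cell, macrophage, T and NK cell, MHC class II and IL1 medians lie at or right of 0 with sex and start cohort.

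Among the remaining lists the heat shock and chaperone genes had a median of 0.00, but Hsp90aa1 and Dnaja1 differed by -0.34 (SE 0.11) and -0.30 (SE 0.10). The clock repressor gene Nr1d2 differed by -0.39 (SE 0.12) in a circadian list with a median of -0.12, and the hour of sacrifice is not given. Hk2, the hexokinase of glycolysis, differed by 0.40 (SE 0.14). Blnk, an adaptor of B cell signaling from the B and plasma cell list, differed by 0.45 (SE 0.14). Adipocyte genes had a median of -0.39 (-0.25 without short mouse 31, -0.62 without long mouse 36), but Adipoq ranged from 4.02 to 11.9 in long and from 3.86 to 10.5 in short mice. Medians were 0.14 for sebaceous and lipid synthesis genes, 0.25 for pigment genes (0.63 without short mouse 26, and 0.12 to 0.16 without short mouse 27, 29 or 30) and -0.04 for oxidative phosphorylation, whose gene Atp5j differed by -0.19 (SE 0.09).

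**Figure D5:**
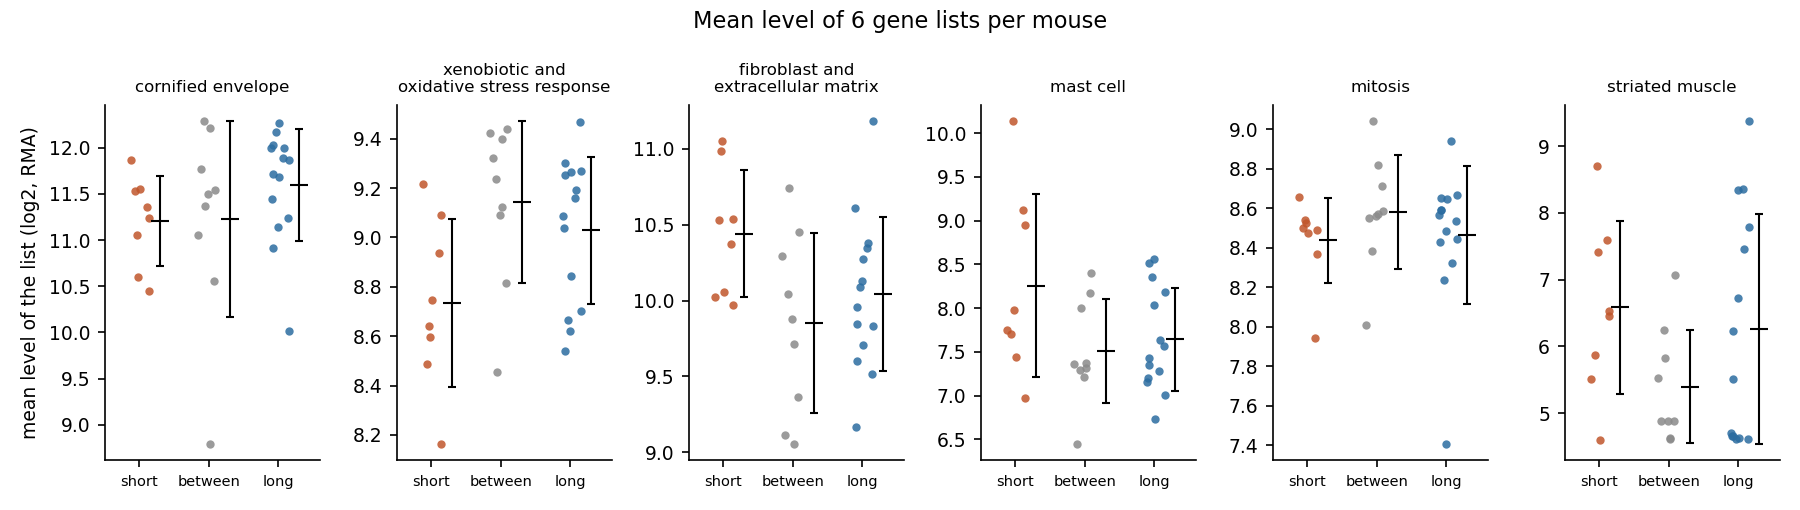
Mean level per mouse (y axis, log2 RMA value) of 6 gene lists in the 8 short, 9 between and 14 long mice (x axis), with bars for mean ± SD. Groups overlap in all 6 lists; fibroblast means are 10.4 ± 0.42 in short and 10.1 ± 0.51 in long mice, and cornified envelope means are 11.2 ± 0.48 and 11.6 ± 0.61.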

How the data were processed

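RNA of 68 papillomas from 37 mice was hybridized to Affymetrix mouse whole-genome expression arrays. The deposited values are log2 expression values that the authors computed with RMA (background correction, quantile normalization and probe summary), whose version is not given in the sources used here. Quantile normalization sets all arrays to nearly the same distribution, so changes shared by most genes are not visible, and the number of arrays limits the precision. Array medians lay between 5.18 and 5.28.

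Values were averaged per mouse. Of 45101 probesets, 34945 had 1 gene symbol, 932 several, 9160 none, and 64 were controls. A probeset was tested if it had 1 symbol and exceeded the median of its array on 11 or more of the 68 arrays, which left 21581 probesets of 12605 genes. Long (290 days or more) and short (230 days or fewer) mice entered linear models in limma 3.58.1 (R 4.3.3), fitted without covariate and with the number of papillomas at 20 weeks, with Benjamini-Hochberg adjustment over all 21581 and a threshold of 0.05. The fits were tested on simulated data. The exact permutation test over mice (319770 splits) used scipy 1.17.1. The labels give each mouse a start date, an origin code and a cage, some of them shared, and mice were treated as independent in the fits without start cohort.

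Named genes were the 12 of smallest p in each direction in the fit without covariate, 6 further genes in each direction from the fit with it, up to 3 genes of largest difference from each of 41 gene lists (646 genes, 553 tested, the probeset of highest mean per gene), and 8 genes linked with these tumors in the study. Other list genes, most of them at an unadjusted p under 0.05, were named after their values were seen. Members and lists were chosen with earlier results of these data known. Alternatives were other filters, units of replication, limits of time, covariates and left-out mice. Probesets without a single symbol and the 6 mice without a time were not used in the comparison.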

Additional observations from a re-analysis of the deposited data

Results flagged for a closer look

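In 18 of 162 named probesets 1 short mouse stood apart from the other 7 by more than Dixon's critical value for 8 values (0.526). Chance gives about 1 such group in 20 for independent, normally distributed values. Most of these probesets were named for a small p or a large difference and are not independent, so that rate is no baseline for these counts. Of the 18, 11 fell on mouse 31, which had a single array and an Actb 3′ to 5′ ratio of 1.28. Mouse 31 was lowest, on the log2 scale, for Rabggta (7.91, next 8.39), the integrin gene Itgb4 (8.43, next 9.45), Notch2 (8.59, next 9.04) and Hk1 (8.64, next 9.13). It was highest for Mrpl42 (11.3, next 10.9), Gins1 (8.34, next 7.69), the T cell genes Icos (8.85, next 7.17) and Ctla4 (7.36, next 5.96), Ighm (13.3, next 9.42), Dnaja1 (11.3, next 11.1) and Slc4a1 (7.88, next 6.01). Mouse 27 was lowest for Sprr3 (8.40, next 12.5) and Krt13 (6.88, next 11.5). Mouse 30 was highest for Kyat1 (7.67, next 7.11) and lowest for Smc6 (7.04, next 7.41). Mouse 20 was lowest for Cdc6 (4.99, next 6.23), H2-Ab1 (10.4, next 10.9) and Hsph1 (7.16, next 8.80). The part of RNA quality in these values was not tested.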

How the results depend on the processing

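The number of probesets past the threshold rested on single mice and covariates. Without papilloma number it went from 0 to 1 with start cohort as a block (Tmem252, lower in long mice), with coat color as covariate (Kcnj15) and without long mice 35 and 36 (Kcnj15, chosen after seeing the data), and lay between 0 and 1 with each mouse left out in turn, 1 only without long mouse 36. With papilloma number it went from 1 to 0 with the first papilloma of each mouse, arrays with mouse as random block, a slope over 31 mice, a split at 270 days, sex, start cohort, both together, log2 papilloma number, papillomas at 24 weeks, mice with a carcinoma array only, and without the 3 mice of high Actb ratio (chosen after seeing the data). It lay between 0 and 1 with each mouse left out, and was 0 without long mouse 4, 6 or 19 or short mouse 20, 26, 28, 29 or 30. Within cohort 1 (2 long, 4 short) 8 probesets passed, among them Kdm5d, Xist, Eif2s3y and Uty of the sex chromosomes. Without the covariate, probesets at an unadjusted p under 0.05 numbered 350 higher and 276 lower with the split at 270 days, 487 and 522 with sex, 1186 and 1788 with start cohort, 446 and 343 without mice of high Actb ratio, 1881 and 2232 without mice 35 and 36, and 1033 to 2724 in all with each mouse left out, and 1301 to 2998 with papilloma number. Inafm1 changed sign within cohort 6 (-0.094). The cause of these changes was not tested. No paired analysis was possible because the replicate number in the labels marks the papilloma within a mouse, and both papillomas of a mouse were averaged.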
